A study of Mus musculus with 12 samples.

Results

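The genes described here are the 10 that encode the catalytic and core subunits of the COMPASS family of histone H3 lysine 4 (H3K4) methyltransferases: Kmt2a, Kmt2b, Kmt2c, Kmt2d, Setd1a and Setd1b, which encode the methyltransferases, and Rbbp5, Ash2l, Wdr5 and Dpy30, which encode the subunits that all of these enzymes share. They were selected by gene name out of the 20409 genes in the gene tables, with earlier results of these data known. The data come from 3 ORFtag screens in mouse embryonic stem cells. In ORFtag a retroviral cassette lands at many sites in the genome, and its promoter drives a transcript that runs through a tag and a splice donor into the next exon downstream, so that the endogenous protein is made with the tag at its N-terminal end. The tag then brings the fusion protein to a reporter, cells whose reporter has changed are collected by flow cytometry, and the insertion sites of collected and uncollected cells are mapped by inverse PCR and sequencing.

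The cells were diploid wild-type mouse embryonic stem cells grown from an originally haploid line, and each screen used a clonal reporter line. In the activator screen the tag was TetR, a bacterial DNA-binding domain, the reporter on chromosome 15 held 7 TetO sites before a minimal MYLPF promoter that drives a puromycin gene and GFP, and the sorted cells were GFP-positive. In the repressor screen the tag was again TetR, 7 TetO sites lay between an EF1-driven BFP gene and a PGK-driven puromycin and GFP gene on chromosome 15, and the sorted cells were GFP-negative. In the post-transcriptional (PTGR) screen the tag was LambdaN, an RNA-binding peptide, a puromycin and GFP messenger RNA from a randomly integrated reporter carried 10 BoxB sites, and the sorted cells came from repeated GFP sorts that used Cre recombinase to take out the BoxB sites. In every screen the unsorted cells had received the same cassette and had been selected for its neomycin resistance gene with G418 but not sorted by reporter. Each screen gave 2 sorted and 2 unsorted libraries, 12 in all.

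A unique insertion position no more than 200 kb from the exon it was assigned to is called an insertion below. It is a sense insertion when the cassette runs in the direction of the gene, and a reversed insertion when its strand was flipped before it was assigned to an exon, which cannot make a fusion with that gene. Sorted libraries held 14705 to 60980 sense insertions and unsorted libraries 54088 to 233799, so that values are given per 10000 sense insertions of a library. A position counts once however many cells carried it. Libraries of a screen shared positions: 19.5% of those of PTGR-sorted replicate 1 and 19.2% of those of activator-sorted replicate 2 were also in the unsorted library of the same number, and the repressor-sorted replicates had 4186 in common, 18.8% and 27.5% of each. The libraries count insertions in DNA and hold no expression values, so that the labelled cell type was not checked against its markers.

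COMPASS complexes place methyl groups on lysine 4 of histone H3, a mark found at active promoters and enhancers. Each complex is built around a single SET-domain methyltransferase: Setd1a or Setd1b, the main source of promoter H3K4 trimethylation; Kmt2a or Kmt2b (MLL1 and MLL2), which act at subsets of promoters; or Kmt2c or Kmt2d (MLL3 and MLL4), which place H3K4 monomethylation at enhancers. All share a core of Wdr5, Rbbp5, Ash2l and Dpy30, without which the enzymes are nearly inactive.

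The sequence that decides which protein the cassette makes is the splice acceptor it feeds. In each of the 10 genes most sense insertions fed the acceptor of annotated exon 2, apart from Dpy30, for which 42 of 91 unsorted insertions did so and 40 fed exon 5. The last 20 bases of the intron and the first 10 of exon 2 are printed below in the direction of the gene, with the AG at the intron's end in capitals, from the mouse genome build GRCm38 with GENCODE vM21 exons.
Setd1b (5:123142923-123142952, plus strand): acaacttgcttgggtttcAGgttgggttaa
Setd1a (7:127778093-127778122, plus strand): tatccctcttttcctgacAGtgtaaatgag
Kmt2a (9:44852997-44853026, minus strand): ataattttcctttgttgtAGgatgagcagt
Kmt2b (7:30587318-30587347, minus strand): cccttggtcccctaaatcAGgagtttcagg
Kmt2c (5:25443899-25443928, minus strand): tagttaatttcttgctgtAGgcctcgaagt
Kmt2d (15:98866748-98866777, minus strand): ttatcttttggcatcaacAGgtctccccga
Rbbp5 (1:132484032-132484061, plus strand): ctttctttgccttgttgcAGagtcctttgg
Ash2l (8:25840603-25840632, minus strand): gccgtcagccgccccgggAGcggagcccag
Wdr5 (2:27518609-27518638, plus strand): aagagaggatttgtttatAGgccccttact
Dpy30 (17:74316107-74316136, minus strand): ggctcttcttgttttgcaAGactggtatcc
All 10 end in AG. A fusion from exon 2, if in frame, keeps the whole annotated coding sequence of Setd1a, Setd1b, Kmt2d, Wdr5 and Dpy30, 98.9% of that of Kmt2c, 98.8% of Rbbp5, 96.4% of Kmt2a and 95.6% of Kmt2b. The methods mix cassettes for each reading frame in equal parts. The positions counted here do not tell which cassette an insertion carried, so that the shares of coding sequence given here and below do not count fusions in frame. For Ash2l the acceptor belongs to an exon with no coding sequence in its own transcript, whose coding sequence has 1503 bases. Later Ash2l acceptors that insertions fed belong to a transcript with 1869 coding bases.

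The activator screen asks which endogenous proteins switch the silent reporter on when they are held at it. Of the 10 COMPASS genes, 7 were enriched in GFP-positive cells: the methyltransferase genes Setd1b, Kmt2c, Kmt2b, Kmt2d and Kmt2a and the core genes Rbbp5 and Ash2l. Wdr5 and Dpy30 were not enriched, and Setd1a had a single sorted insertion. Together the 10 genes held 985 of the 32102 sense insertions of the sorted libraries, a share of 3.07% (95% Wilson interval 2.89% to 3.26%), and 0.131% of the 1022126 of the unsorted libraries. The methyltransferase genes took 2.18% of the sorted insertions against 0.0802% of the unsorted ones, and the core genes 0.885% against 0.0503%. The intervals given here cover counting error only.

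Enrichment was tested for each gene with a one-sided Fisher's exact test of the 2 sorted libraries, summed, against all 6 unsorted libraries, summed, in which a gene was called when the Benjamini-Hochberg adjusted p was below 0.001 and the log2 odds ratio at least 1. Genes with at least 3 sorted insertions were tested. Of all 2842 genes tested, 4.64% were called, and of the 10 COMPASS genes 8 were tested and 7 called. The median ratio of sorted to unsorted share was 12.6 over the 10 COMPASS genes and 0 over the 18268 genes with an unsorted insertion, most of which had no activator-sorted insertion. The same 7 genes were higher in both sorted libraries than in any of the 6 unsorted libraries, as were 2.89% of the 18560 genes with an insertion, and none of the 10 were lower in both, as 21.3% of genes were. The genes were chosen with earlier results of these data known, and the paper names Kmt2a to Kmt2d as hits of this same screen. These contrasts with all genes are therefore no independent support.

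**Figure D1:**
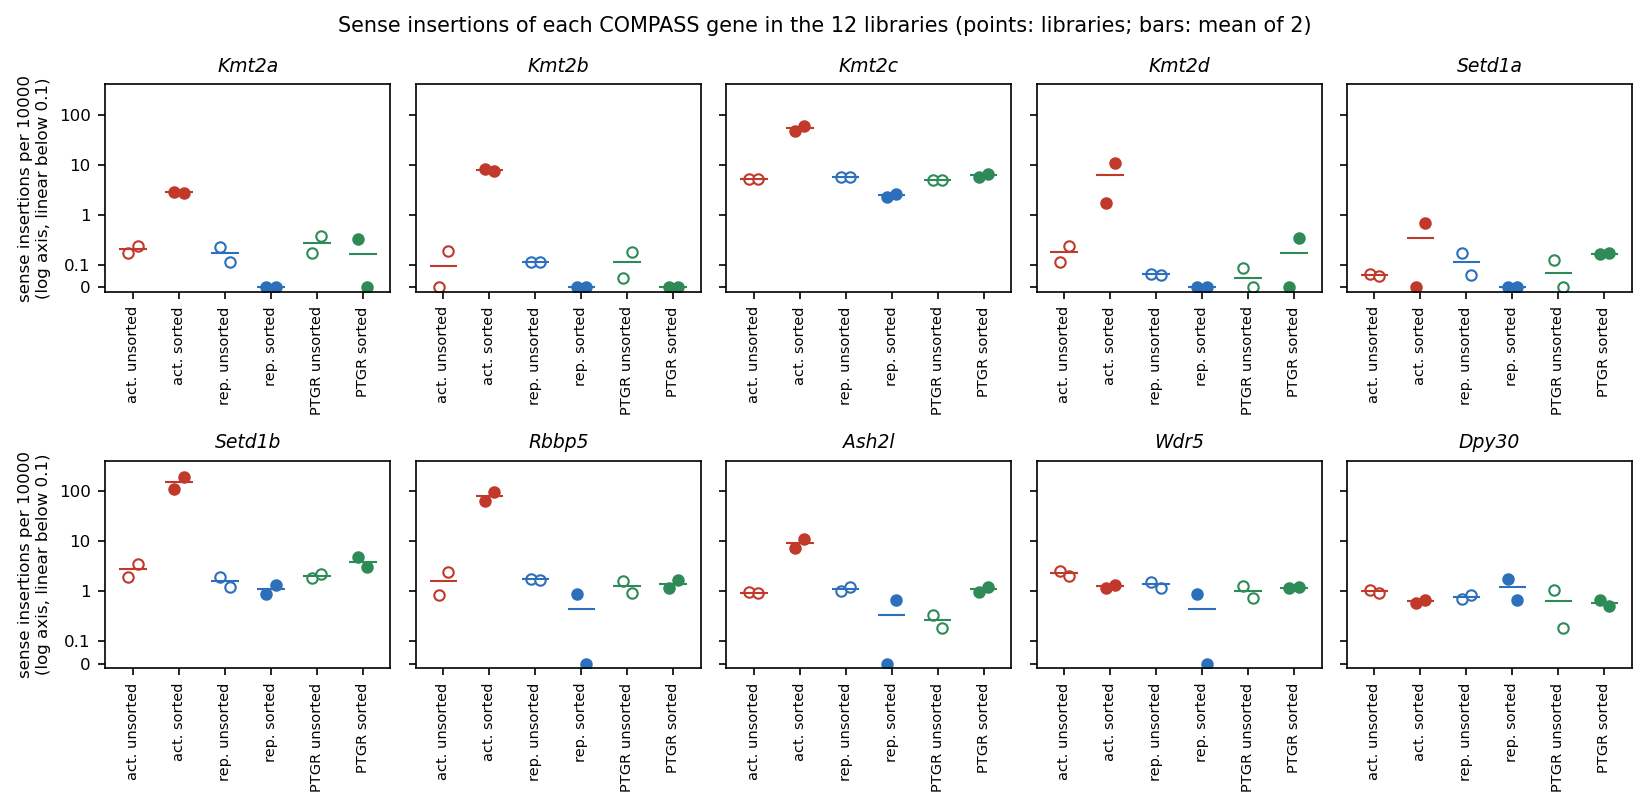
Sense insertions per 10000 in each of the 12 libraries for the 10 COMPASS genes, on an axis that is logarithmic above 0.1 and linear below it. Points are libraries (open, unsorted, and filled, sorted) and short bars the mean of 2. In 7 genes both activator-sorted libraries lie above all unsorted libraries, from Setd1b at 111 and 193 down to Kmt2a at 2.87 and 2.72, while the repressor-sorted libraries of Kmt2a, Kmt2b, Kmt2d and Setd1a lie at 0.

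Among the methyltransferase genes, Setd1b (5:123142193-123168629, plus strand) carried the most insertions. Its activator-sorted libraries held 193 and 284 insertions, or 111 and 193 per 10000, against a lowest value of 1.24, a median of 1.94 and a highest of 3.56 per 10000 in the 6 unsorted libraries. The sorted and unsorted ranges were thus far apart, although the sorted libraries differed from each other more than did those of Kmt2c or Kmt2b. The share in sorted cells was 69.0 times that in unsorted cells (log2 odds ratio 6.13, SE 0.12), and Fisher's exact test gave a Benjamini-Hochberg adjusted p whose −log10 was 537. Setd1b ranked 3 among the 132 called genes by its number of sorted insertions. Its close relative Setd1a (7:127776670-127800122, plus strand) had 0 and 1 sorted insertions where 0.283 were expected from the unsorted share, and 9 insertions in all unsorted libraries. That insertion fed exon 13, which leaves 40.5% of the coding sequence, whereas 7 of the 9 unsorted insertions fed exon 2. With a log2 odds ratio of 1.82 and a 95% interval from −1.16 to 4.80, the activator data for Setd1a cover both no difference and one as large as that of Kmt2c.

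Kmt2c (5:25271798-25498783, minus strand), which encodes an enhancer-type methyltransferase, was the COMPASS gene with the most unsorted insertions, 550, and its unsorted libraries lay close together between 4.99 and 5.80 per 10000. The activator-sorted libraries held 82 and 88 insertions, 47.1 and 59.8 per 10000. The share rose 9.84 times (log2 odds ratio 3.31, SE 0.13, Fisher's exact test, adjusted p = 1.54e-94). Its paralog Kmt2d (15:98831669-98871204, minus strand) had 11 unsorted insertions. Its sorted libraries differed most among the called COMPASS genes, with 3 and 16 insertions, or 1.72 and 10.9 per 10000, against at most 0.241 in an unsorted library. The log2 odds ratio was 5.78 (SE 0.55, Fisher's exact test, adjusted p = 2.43e-20). In replicate 2 alone it was 6.66 (adjusted p = 4.41e-22), and in replicate 1 alone it was 4.00 with an adjusted p of 0.0218, which is not below the threshold, by the same Fisher's exact test. The call for Kmt2d therefore needed replicate 2.

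Kmt2b (7:30568858-30588726, minus strand) had 14 and 11 insertions in the activator-sorted libraries and 10 in all 6 unsorted libraries, none of them in replicate 1 of the activator screen's own unsorted cells. Per 10000 these were 8.05 and 7.48 in the sorted libraries and between 0 and 0.193 in the unsorted ones. Both sorted values were alike, and the ratio of shares, 79.6, was the highest of the 10 genes (log2 odds ratio 6.32, SE 0.54, Fisher's exact test, adjusted p = 7.75e-29). Kmt2a (9:44803355-44881296, minus strand), known for its translocations in leukemia, was the called COMPASS gene with the fewest sorted insertions. It had 5 and 4, or 2.87 and 2.72 per 10000, against 0.113 to 0.370 in the unsorted libraries. The log2 odds ratio was 3.84 (SE 0.58, Fisher's exact test, adjusted p = 3.50e-06). Without sorted replicate 1, Kmt2a was no longer called (log2 odds ratio 3.80, Fisher's exact test, adjusted p = 0.00250).

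Of the shared core, Rbbp5 (1:132477365-132505659, plus strand), a scaffold that contacts both the methyltransferase and Ash2l, was the most enriched. It had 110 and 139 insertions in the activator-sorted libraries, 63.2 and 94.5 per 10000, against a lowest value of 0.855, a median of 1.66 and a highest of 2.41 in unsorted libraries. The groups did not overlap, and the share rose 46.9 times (log2 odds ratio 5.56, SE 0.14, Fisher's exact test, adjusted p = 1.55e-257). Rbbp5 ranked 10 among the called genes by sorted insertions. Ash2l (8:25815996-25847694, minus strand), whose product helps the core to activate the enzyme, had 13 and 16 sorted insertions, 7.47 and 10.9 per 10000, against 0.185 to 1.24 in the unsorted libraries (log2 odds ratio 3.44, SE 0.31, Fisher's exact test, adjusted p = 3.05e-17).

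The other two core genes gave no such difference. Wdr5 (2:27515157-27536535, plus strand), a WD40-repeat protein that binds the methyltransferase, had as many unsorted insertions as Rbbp5, 169, yet 2 and 2 in the sorted libraries where 5.31 in all were expected. Its sorted values of 1.15 and 1.36 per 10000 lay within the unsorted range of 0.740 to 2.57. The log2 odds ratio was −0.41 with a 95% interval from −1.84 to 1.02 (Fisher's exact test, adjusted p = 1.00). That interval lies wholly below those of Rbbp5 (5.28 to 5.85) and Ash2l (2.83 to 4.05). Dpy30 (17:74299474-74323944, minus strand), a small protein that binds Ash2l, had 1 insertion in each sorted library where 2.86 in all were expected and was not tested. Its log2 odds ratio was −0.52, with a 95% interval from −2.54 to 1.51, which lies below the interval of each of the 7 called genes. Of its 91 unsorted insertions, 40 fed exon 5, which keeps 23.6% of the coding sequence, so that fewer of them than of the Wdr5 insertions could give a nearly whole protein.

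In order of activator-sorted insertions per 10000 (mean ± SD, n = 2) the genes ran from Setd1b at 152 ± 58.1 through Rbbp5 at 78.9 ± 22.1 and Kmt2c at 53.5 ± 8.99 to Ash2l at 9.18 ± 2.41, Kmt2b at 7.76 ± 0.401, Kmt2d at 6.30 ± 6.47 and Kmt2a at 2.80 ± 0.109. The values of Setd1b, Rbbp5, Kmt2c and Ash2l did not overlap between neighbours, whereas those of Ash2l, Kmt2b and Kmt2d did, and those of Kmt2a lay within the range of Kmt2d. This order depends on how often the cassette lands near each gene. By log2 odds ratio the order was Kmt2b, Setd1b, Kmt2d, Rbbp5, Kmt2a, Ash2l and Kmt2c, from 6.32 down to 3.31. The 95% interval of Kmt2d (4.71 to 6.85) overlapped those of Kmt2b, Setd1b and Rbbp5 and also that of Kmt2a (2.71 to 4.98), that of Setd1b (5.90 to 6.36) did not overlap that of Rbbp5 (5.28 to 5.85), and those of Kmt2a, Ash2l and Kmt2c overlapped one another. The median log2 odds ratio over all 132 called genes was 5.03.

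**Figure D2:**
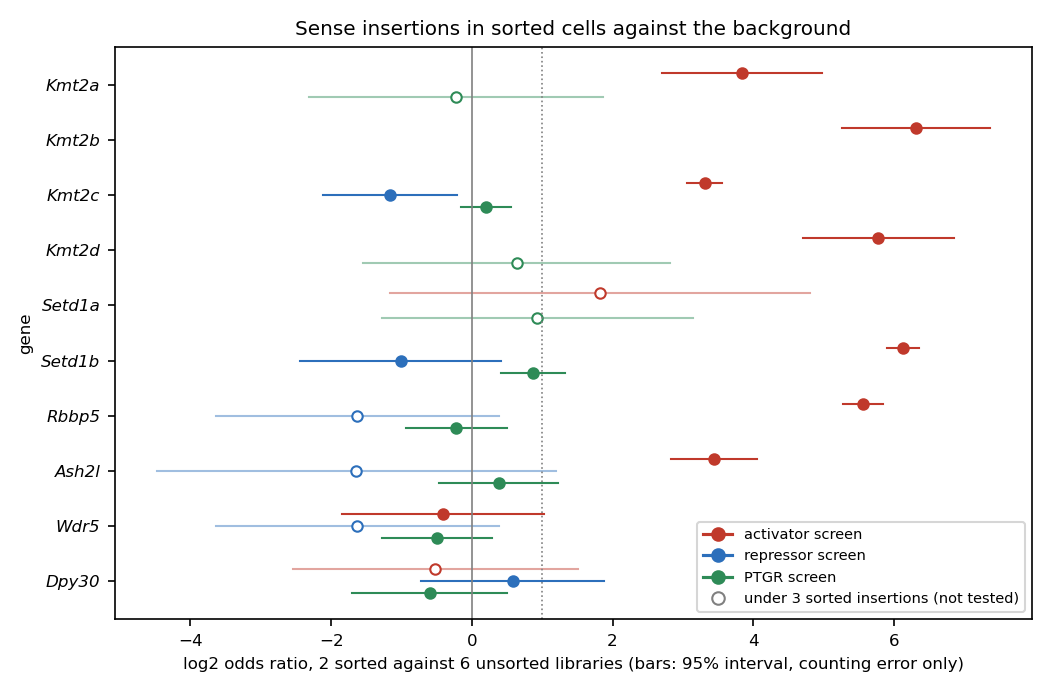
Log2 odds ratio of sense insertions in 2 sorted against 6 unsorted libraries for each COMPASS gene in the 3 screens, with 95% intervals that cover counting error only. Open points mark genes with under 3 sorted insertions, which were not tested, no point is drawn where there was no sorted insertion, and the dotted line is the minimum of 1 for a call. The activator values of 7 genes lie between 3.31 and 6.32, and no repressor or PTGR value of a tested gene reaches 1.

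Fisher's exact test takes each insertion as independent, so that the spread between replicates was brought in with edgeR's quasi-likelihood test of the 2 sorted and 2 unsorted libraries within a screen. The methods describe the replicates as biological, and the labels give no separate cultures. Of the 2998 genes tested, 4.00% were called higher in activator-sorted cells at an adjusted p below 0.05, and the 7 COMPASS genes called by Fisher's exact test were among them. The edgeR log2 fold changes were 6.42 for Kmt2b (adjusted p = 5.86e-20), 6.18 for Setd1b (0.00452), 5.96 for Rbbp5 (1.07e-07), 5.31 for Kmt2d (4.45e-14), 4.03 for Kmt2a (4.85e-06), 3.72 for Kmt2c (6.98e-06) and 3.60 for Ash2l (4.96e-13). Wdr5 did not pass (−0.51, edgeR adjusted p = 0.922), and Setd1a and Dpy30 had too few insertions to be fitted. Of the 7 called genes, only Setd1b and Kmt2c would pass edgeR's filter for low counts through unsorted libraries alone. The other called COMPASS genes needed the sorted libraries, where they are high, so that their edgeR calls are no independent support. When either unsorted activator library was left out, edgeR's filter kept 228 or 227 genes, and it called Setd1b, Rbbp5, Kmt2b and Kmt2c. Without replicate 1 and without replicate 2, in that order, Ash2l then had log2 fold changes of 2.17 and 2.00 and Kmt2d 3.41 and 4.31, while Kmt2a was not fitted. Those of Setd1b were 4.26 and 5.05, of Rbbp5 3.89 and 5.28, of Kmt2c 2.22 and 2.12 and of Kmt2b 4.14 and 7.83. Apart from the higher Kmt2b value, all were below those of the full fit. Without sorted replicate 1 Kmt2a was not fitted, and without sorted replicate 2 neither Kmt2a nor Kmt2d was. The called genes held 34.2% of the activator-sorted insertions, and the edgeR scaling moved all its activator log2 fold changes up by 0.37 relative to library totals.

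Cassettes in the reversed direction land in the same regions but cannot make the fusion, and they give a control inside each library. In the activator-sorted libraries Setd1b had 477 sense and 1 reversed insertion, a sense share of 99.8% (95% Wilson interval 98.8% to 100%), against 73.1% (67.8% to 77.8%) in the unsorted libraries. For Rbbp5 the sense share was 99.2% (97.1% to 99.8%) against 52.3% (46.9% to 57.7%), and for Kmt2c 93.9% (89.4% to 96.6%) against 50.7% (47.8% to 53.7%). Kmt2b and Kmt2d had no reversed insertion beside 25 and 19 sense ones, for which the lower interval bounds were 86.7% and 83.2%. The sense shares of these genes in sorted cells thus lay above their unsorted shares by more than counting error. Ash2l had 87.9% sense (72.7% to 95.2%) against 45.9% (38.9% to 53.1%). Kmt2a, with 9 sense and 2 reversed insertions, had 81.8%, and its interval (52.3% to 94.9%) overlapped the unsorted one (40.9% to 72.0%). Over all genes the sense share was 51.9% in activator-sorted and 50.2% in unsorted libraries. Tested as above, 0 of the 10 COMPASS genes were called for reversed insertions in the activator screen, where 3.14% of tested genes were, and only Kmt2c and Ash2l had the minimum of 3 reversed insertions needed to be tested.

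**Figure D3:**
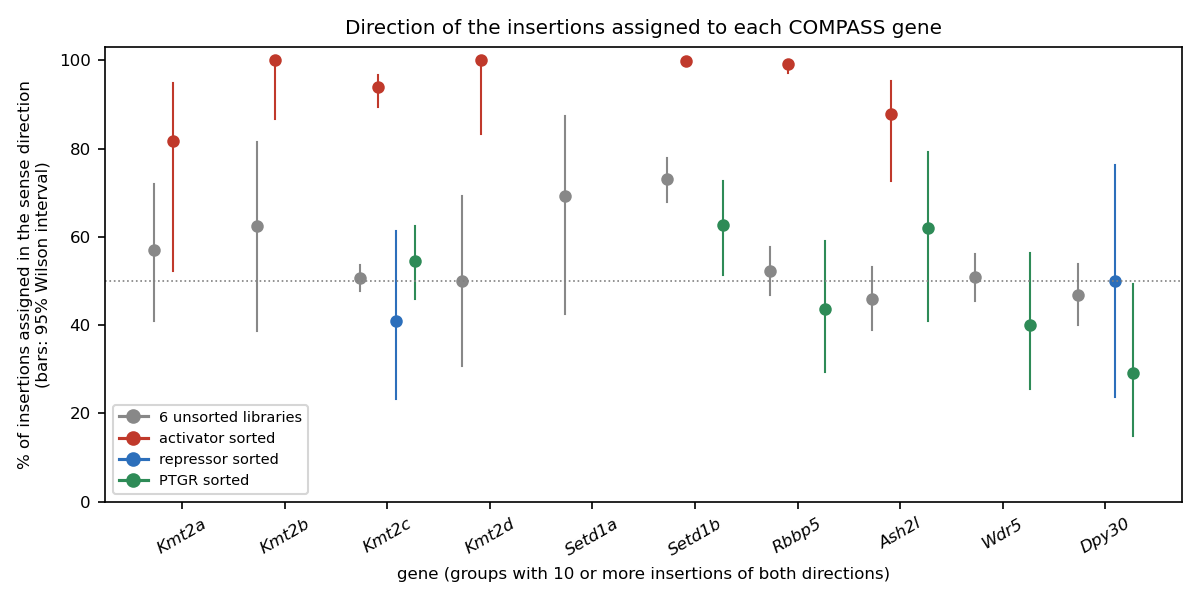
Share of insertions in the sense direction, in percent with 95% Wilson intervals, for each COMPASS gene in the unsorted libraries together and in the sorted libraries of each screen, drawn where a group had 10 or more insertions of both directions. The dotted line marks 50%. Activator-sorted points of the 7 called genes lie between 81.8% and 100%, and the unsorted points between 45.9% and 73.1%.

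The unsorted Setd1b share was raised in 1 screen. It was 87.1% (80.1% to 91.9%) in the activator screen's unsorted cells but 62.9% and 63.6% in those of the PTGR and repressor screens. In replicate 2 of the unsorted activator cells, 41 of 74 Setd1b positions and 17 of 50 Rbbp5 positions were also present in replicate 2 of the sorted activator cells. Between the 2 sorted replicates, 57 of 420 distinct Setd1b positions and 21 of 228 Rbbp5 positions were shared, against 2 of 168 for Kmt2c, 1 of 24 for Kmt2b and 0 for Kmt2a, Kmt2d and Ash2l. For these 5 genes the sorted replicates therefore held almost entirely separate insertion sites. With all positions found in more than 1 library left out, the same 7 genes were called, and the log2 odds ratio was 6.68 for Setd1b and 5.73 for Rbbp5. The origin of the shared positions was not tested.

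Where in each gene the activator insertions lay also varied. For Setd1b 469 of 477 sorted insertions (98.3%, 95% Wilson interval 96.7% to 99.1%) fed exon 2 and all 477 would, where in frame, keep at least 90% of the coding sequence. In the unsorted libraries 190 of 220 (86.4%, 81.2% to 90.3%) fed exon 2 and 203 of 220 would, where in frame, keep 90%. All 249 Rbbp5 and all 29 Ash2l insertions, and 164 of 170 for Kmt2c, fed exon 2. The share feeding exon 2 over all genes was 79.6% in activator-sorted and 83.6% in unsorted libraries. Of the 9 Kmt2a insertions 7 fed exon 2, 1 fed exon 11 and 1 fed exon 27, which keeps 45.4% of the coding sequence. Most Setd1b insertions, 92.9% in sorted and 83.6% in unsorted cells, lay before the annotated gene start, at a median of 3055 and 2846 bp before the acceptor.

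Ash2l differed from the other called genes in this respect. In sorted cells 19 of its 29 insertions (65.5%, 7 of 13 in replicate 1 and 12 of 16 in replicate 2) lay inside the gene, compared with 20 of 85 (23.5%) in unsorted cells, of which 59 lay in the neighbouring gene Kcnu1. The median distance to the acceptor was 1478 bp in sorted and 71227 bp in unsorted cells. When insertions over 50 kb from the exon were left out, the log2 odds ratio of Ash2l rose from 3.44 to 4.92. For Kmt2c the medians were close to each other, at 90500 and 93590 bp, and most insertions that fed it lay far upstream of the gene start in both kinds of cell. The share inside the gene was 21.2% in sorted cells (18 of 82 and 18 of 88) and 10.5% in unsorted cells. The median distances for Rbbp5 were alike, at 11575 and 11949 bp. For Wdr5 104 of the 169 unsorted insertions lay in Brd3 and 27 in Vav2, its upstream neighbours, and 13 inside the gene.

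**Figure D4:**
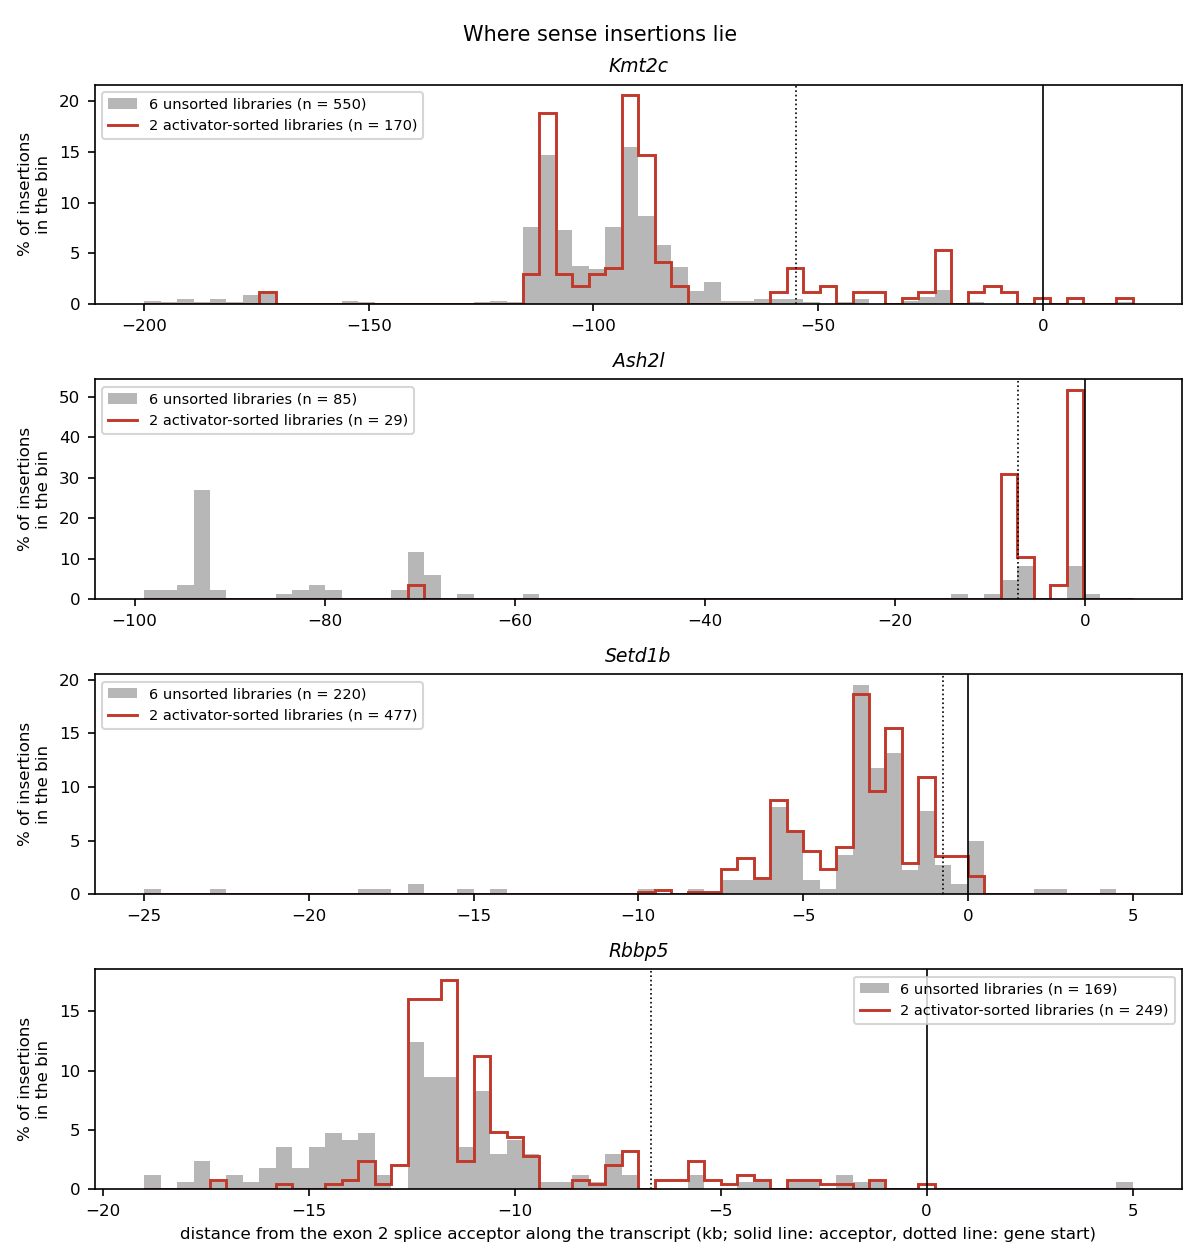
Position of sense insertions relative to the exon 2 splice acceptor (solid line) for Kmt2c, Ash2l, Setd1b and Rbbp5, in kb along the direction of the gene, as the percent of a gene's insertions in each bin. Grey bars are the 6 unsorted and red outlines the 2 activator-sorted libraries, the dotted line is the gene start, and insertions more than 5 kb past the acceptor (20 kb for Kmt2c) are not drawn. The Ash2l insertions of sorted cells lie near the acceptor and the gene start and those of unsorted cells mostly between 60 and 100 kb upstream.

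The repressor screen asks which proteins silence an active reporter. Of the 10 COMPASS genes 3 were tested and none called, against 8.18% of the 2346 genes tested. At that share a count of 0 among 3 genes says little. No COMPASS gene other than Dpy30 had a higher share in sorted than in unsorted cells. The 10 genes held 23 of the 37470 repressor-sorted insertions, 0.0614% (0.0409% to 0.0921%), under the 0.131% of the unsorted libraries. Kmt2c had 5 and 4 insertions, or 2.25 and 2.63 per 10000, below the lowest unsorted library at 4.99. Its log2 odds ratio was −1.16 (95% interval −2.11 to −0.21), while the called genes held 54.8% of all repressor-sorted insertions and the median log2 odds ratio over tested genes was −0.39. Kmt2a and Kmt2c lay below all 6 unsorted libraries in both sorted ones, as did 28.5% of all genes, and none of the 10 lay above, as did 3.13%. With edgeR, whose scaling moved the repressor log2 fold changes up by 0.79, Kmt2c had −0.46 (adjusted p = 0.682). Without sorted replicate 1 or 2 the Kmt2c value was −0.79 or −0.65. Without unsorted replicate 1 or 2, where the filter kept 401 or 399 genes, it was −1.95 or −1.88. Setd1b had 2 and 2 insertions (log2 odds ratio −1.01, SE 0.73) and an edgeR log2 fold change of 0.22 (adjusted p = 0.919). Dpy30 had 4 and 1 (0.58, SE 0.66, Fisher's exact test, adjusted p = 1.00), and 4 of these 5 fed exon 5. Kmt2a, Kmt2b, Kmt2d and Setd1a had 0 insertions in repressor-sorted cells, where the limit set by a count of 0 is 0.801 per 10000, above the unsorted level of each, so that a fall was not detectable at this depth. Rbbp5 had 2 insertions, Wdr5 2 and Ash2l 1, too few to be tested. Only Ash2l, Kmt2c, Rbbp5, Setd1b and Wdr5 could be fitted with edgeR, and 0 of them were called higher, against 7.20% of the 2779 genes tested.

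The PTGR screen asks the same of proteins held at a messenger RNA. Of the 10 COMPASS genes 6 were tested and none called, against 0.666% of the 9303 tested genes. At that share a count of 0 among 6 genes says little. Of all genes 4.82% lay above and 5.45% below all 6 unsorted libraries in both PTGR-sorted ones, and 0 of the 10 did either. The 10 genes held 178 of 119540 insertions, 0.149% (0.129% to 0.172%). Setd1b came nearest. Its sorted libraries had 29 and 18 insertions, 4.76 and 3.07 per 10000, which overlapped the unsorted range of 1.24 to 3.56, and its log2 odds ratio of 0.87 (SE 0.23, Fisher's exact test, adjusted p = 0.0265) met neither threshold. The edgeR log2 fold change was 1.10 (adjusted p = 0.161), where 2.24% of tested genes were called. Of its 47 PTGR-sorted positions, 16 were also present in the sorted libraries of another screen. Kmt2c (0.20, SE 0.18), Rbbp5 (−0.22, SE 0.37), Ash2l (0.39, SE 0.43), Wdr5 (−0.50, SE 0.40) and Dpy30 (−0.60, SE 0.57) had log2 odds ratios within 2 SE of 0. The value for Ash2l depended on the background: its PTGR-sorted libraries lay at 0.984 and 1.20 per 10000 and the unsorted libraries of that screen at 0.342 and 0.185, and against these alone the log2 odds ratio was 1.80 (Fisher's exact test, adjusted p = 0.278). Kmt2a, Kmt2d and Setd1a had 2 insertions each and Kmt2b had 0, for which the limit is 0.251 per 10000.

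In the reversed direction the PTGR-sorted libraries held 28 Setd1b insertions, and the test called them (log2 odds ratio 1.57, SE 0.32, Fisher's exact test, adjusted p = 9.25e-04), along with 0.500% of 9204 genes tested. The sense share of Setd1b in these libraries, 62.7% (51.4% to 72.7%), was close to the 62.9% of the same screen's unsorted cells. The call was lost when either PTGR-sorted library or either unsorted activator library was left out, and when the unsorted libraries of the PTGR screen alone served as background. In the repressor screen 0 of the 5 COMPASS genes tested were called for reversed insertions, against 5.61% of tested genes.

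Whether the enrichment differed between screens was tested with edgeR as a difference of log2 fold changes, each taken within its own screen. Between the activator and repressor screens, in which both tags are TetR and both reporters lie on chromosome 15, 8.25% of the 2569 genes differed, and 5 COMPASS genes did: Rbbp5 by 6.89 (edgeR adjusted p = 1.07e-10), Setd1b by 6.03 (5.32e-10), Ash2l by 4.93 (0.00107), Kmt2c by 4.24 (1.32e-09) and Kmt2b by 9.82 (0.0401). Between the activator and PTGR screens 3.89% differed, among them Rbbp5 by 5.95 (edgeR adjusted p = 4.26e-12), Setd1b by 5.19 (2.83e-11), Kmt2c by 3.40 (1.97e-09) and Kmt2b by 9.28 (0.0471). Both comparisons use the same activator libraries. Kmt2b had no sorted insertion in the repressor and PTGR screens, so that its fitted differences depend on the prior count and are no bound. With a replicate block neither passed (edgeR adjusted p = 0.0577 and 0.0580). The filter ran over all 12 libraries. Within the repressor and PTGR screens alone it dropped Kmt2a, Kmt2b and Kmt2d, and within the PTGR screen also Rbbp5, Ash2l and Wdr5. Kmt2a, Kmt2b, Kmt2d and Ash2l entered the fit over all 12 libraries only through their activator-sorted counts, where they are high. The results for Kmt2b and Ash2l are therefore no independent support for a difference. The differences for Kmt2a and Kmt2d did not pass in either comparison (edgeR adjusted p from 0.130 to 0.520), and for Ash2l the activator and PTGR screens differed by 1.82 (edgeR adjusted p = 0.510). Between the repressor and PTGR screens 6.54% of the 2569 genes and 0 COMPASS genes differed. Setd1a and Dpy30 were not fitted in these comparisons.

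Other genes of H3K4 methylation were counted in 3 lists. Among 11 genes for subunits that belong to only some COMPASS complexes (Men1, Psip1, Kdm6a, Paxip1, Pagr1a, Ncoa6, Cxxc1, Wdr82, Hcfc1, Hcfc2 and Bod1l), 4 were tested in the activator screen. Of these 1 was called, where 4.64% of all genes tested were. This was Pagr1a, whose product works in the Kmt2c and Kmt2d complexes, with 2 and 4 sorted insertions against 8 in all unsorted libraries (log2 odds ratio 4.58, SE 0.78, Fisher's exact test, adjusted p = 4.71e-05). Replicate 1 alone, with 2 insertions, is under the minimum of 3, and Pagr1a had too few insertions for edgeR's filter. Of its 6 sorted insertions 4 fed an acceptor that keeps 36.9% of the coding sequence of its transcript, as did 2 of the 8 unsorted ones. Hcfc1, which encodes a subunit of the Setd1a and Setd1b complexes, had the most activator-sorted insertions of the list, 15, with a log2 odds ratio of 0.44 (Fisher's exact test, adjusted p = 0.968), followed by Pagr1a and by Paxip1 with 5 and a log2 odds ratio of −0.04. The 11 genes together held 0.112% of activator-sorted and 0.0799% of unsorted insertions. None of this list were called in the repressor or PTGR screen, where 1 and 6 of them were tested. Of all genes tested 8.18% and 0.666% were called there.

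Among 7 other SET-domain genes linked to H3K4 (Kmt2e, Setd7, Prdm9, Ash1l, Smyd1, Smyd2 and Smyd3), 0 were called in any of the 3 screens. In the activator, repressor and PTGR screens 2, 0 and 7 of them were tested. They held 0.0374% of activator-sorted against 0.0937% of unsorted insertions. The most activator-sorted insertions were 4, in Kmt2e and in Smyd3. Of the 6 H3K4 demethylase genes (Kdm5a, Kdm5b, Kdm5c, Kdm5d, Kdm1a and Kdm1b), 3, 2 and 5 were tested in the activator, repressor and PTGR screens. In the activator and PTGR screens 0 were called, against 4.64% and 0.666% of all genes tested. In the repressor screen, where 8.18% of all genes tested were called, 1 was. This was Kdm1a, which encodes LSD1 and removes methyl groups from H3K4. Kdm1a had 20 and 9 insertions in the repressor-sorted libraries, 8.98 and 5.92 per 10000, against at most 0.689 in an unsorted library (log2 odds ratio 4.24, SE 0.35, Fisher's exact test, adjusted p = 2.93e-22). In the activator-sorted libraries Kdm1a had 0 and 1 insertions, and the most in this list were 5, in Kdm5a (log2 odds ratio −0.78) and Kdm5b (−1.61).

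The genes whose insertions varied over the 12 libraries most like the mean of the 6 methyltransferase genes, by Pearson correlation of log2 values per 10000 (pseudocount 0.1) over 4762 genes, were Foxj2 (r = 0.9910), Synrg (0.9889), Aff1 (0.9884), Foxo6 (0.9858) and Foxo1 (0.9840). All 5 were called in the activator screen, with log2 odds ratios of 5.03, 6.05, 2.74, 6.02 and 5.89. The 12 points share the depth of the libraries and fall into 2 activator-sorted libraries and 10 others, so that the correlation describes that contrast.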

How the data were processed

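Insertion sites were mapped in 12 genomic DNA libraries. According to the methods, the authors trimmed reads (Trim Galore 0.6.0 in the submitters' notes), aligned them with Bowtie2 to mm10, used SAMtools 1.9, removed duplicates and poorly mapped reads, and gave each insertion the closest protein-coding exon downstream that is not a first exon. The deposited tables list insertions line by line, and pooled tables give counts per gene. Here unique positions within 200 kb were counted per gene and library. Repeats of a position, which made up 12.8% of lines in PTGR-sorted replicate 2 and 50.0% in the repressor-unsorted libraries, were counted once, so that 4 COMPASS genes differ from the authors' pooled PTGR-sorted counts. The authors' fold and p columns were not used. The main test, one-sided and exact (Fisher), with Benjamini-Hochberg adjusted p-values over genes with at least 3 sorted insertions, follows the methods. It called 132, 192 and 62 genes in the activator, repressor and PTGR screens. These are fewer than the paper reports for each screen, and why was not tested. Replicate spread and differences between screens were tested with edgeR 4.0.16 in R 4.3.3 (quasi-likelihood, TMM), with DESeq2 1.42.0 as an alternative, and the scripts were tested on simulated data. Intervals are 95% Wilson (shares) or Wald (odds ratios), and the limit for a count of 0 is 3 counts. Python 3.11.15, scipy 1.17.1 and pysam 0.24.0 were used.

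The members and lists were chosen with earlier results of these data known. All 10 members are named and, of the lists, genes called in any screen and the 3 with the most activator-sorted insertions. Alternatives were a 50 kb limit, minimums of 1 and 10 insertions, an adjusted p of 0.05, same-screen background, removal of positions in more than 1 library, each replicate left out, the replicate block and DESeq2. The methods take unsorted and sorted cells from the same transduced pool. Same-numbered libraries shared more positions than others in the activator screen (5.17% against 2.35% of sorted replicate 1, 19.2% against 1.39% of replicate 2) and the PTGR screen (19.5% against 0.397%, 6.98% against 1.93%), but not in the repressor screen (8.50% against 10.0%, 8.72% against 5.47%), where replicate 1 shared less with its own number, and gene-level deviations correlated by 0.059, −0.008 and 0.258 over 2930 genes in the activator, repressor and PTGR screens. Fits without the block are the main ones, and the block is given as an alternative. Exons are from GENCODE vM21, and every insertion of the members matched an acceptor in it.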

Additional observations from a re-analysis of the deposited data

Results flagged for a closer look

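Several genes were singled out because their enrichment differed between screens by edgeR's test of the difference of log2 fold changes. Between the activator and PTGR screens these were Kmt2b (9.28), Rbbp5 (5.95), Setd1b (5.19) and Kmt2c (3.40). Between the activator and repressor screens they were Kmt2b (9.82), Rbbp5 (6.89), Setd1b (6.03), Kmt2c (4.24) and Ash2l (4.93), all higher in the activator screen, and the demethylase gene Kdm1a (−4.59), which was higher in the repressor screen. Kdm1a also differed between the repressor and PTGR screens by 4.07 (edgeR adjusted p = 0.0102). Kdm1a passed edgeR's filter only through the repressor-sorted libraries, where it is high, so that its differences are no independent support. The values for Kmt2b rest on 25 activator-sorted insertions against 0 in the sorted libraries of the other screens. Kmt2b and Ash2l passed edgeR's filter only through the activator-sorted libraries, where they are high.

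The reversed Setd1b insertions of the PTGR-sorted libraries, which cannot make a fusion, had a log2 odds ratio of 1.57 against the unsorted libraries. The sense insertions of Setd1b in the same libraries had 0.87.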

How the results depend on the processing

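The 7 COMPASS genes called in the activator screen kept a positive log2 value under 18 alternatives each to the Fisher test, and Setd1b, Rbbp5, Kmt2c, Kmt2b and Ash2l were called under each of those 18, with log2 values of 5.70 to 6.68, 5.27 to 6.04, 3.14 to 3.98, 6.04 to 7.07 and 3.17 to 4.92. Kmt2d was not called without activator-sorted replicate 2 (4.00), nor Kmt2a without replicate 1 (3.80) or with a minimum of 10 insertions, which leaves it out of the test. Wdr5 ranged from −1.30 to −0.23. Leaving out one library at a time, edgeR called 4 to 6 COMPASS genes in the activator screen, with 4 without either unsorted activator library (Ash2l, Kmt2d and Kmt2a lost), and the reversed insertions gave 0 or 1 called COMPASS genes in the PTGR screen, and 0 with same-screen background. The PTGR screen's count of all called genes, 62, was 40 with same-screen background, 121 at an adjusted p below 0.05, 38 with edgeR, 39 with edgeR and a replicate block, and 26 with DESeq2. Values that changed sign, none of them called, were Setd1b in the repressor screen (0.22 with edgeR, 0.19 with the block), Dpy30 there (−0.44 without sorted replicate 1, 1.01 without replicate 2), and in the PTGR screen Kmt2c (−0.43) and Ash2l (−0.62) within 50 kb, Rbbp5 (0.21 without positions in more than 1 library, 0.05 without sorted replicate 1 and −0.53 without replicate 2, 0.12 with DESeq2) and Wdr5 (0.18 with DESeq2). The cause was not tested. With the replicate number as a block, edgeR called 118 genes in place of 120 in the activator screen, 188 in place of 200 in the repressor screen and 39 in place of 38 in the PTGR screen, and the same 7 COMPASS genes in the activator screen. Of these, Kmt2a, Kmt2b, Kmt2d, Ash2l and Rbbp5 again needed the sorted libraries to pass edgeR's filter. Ash2l in the PTGR screen rose from 0.39 to 1.80 with same-screen background and 1.95 with DESeq2, and was not called. Depth limits Setd1a and, outside the activator screen, Kmt2a, Kmt2b and Kmt2d.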
